A study of Homo sapiens with 17 samples.

Results

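The human mitochondrial genome is a small circular chromosome that carries its own ribosomal RNAs (rRNAs), transfer RNAs (tRNAs) and a few messenger RNAs (mRNAs). All genes whose symbol starts with MT- were taken as members, which gave 37 of the 60662 genes counted. They comprise 2 rRNA genes, 13 protein-coding genes and 22 tRNA genes. Counts were available from cultures of Ishikawa cells, an established line from a human endometrial adenocarcinoma used to model endometrial epithelium. The groups were untreated control cultures in basal medium (n = 3), vehicle control cultures that received Nap and ethanol (n = 3), Nap-only cultures (n = 2), and cultures that received Nap and progesterone (P4, n = 3), each treated for 24 h. Nap is not defined in the labels, and ethanol is named there only for the vehicle control, so ethanol as well as P4 may distinguish the P4 treated cultures from it. The sources used here give differing concentrations of P4 and of ethanol; the label of the vehicle control samples gives 70% ethanol. Another 6 libraries, from cultures given recombinant PSAT1 with or without P4, have titles that contradict their column names. No condition was given to them, and no comparison used them.

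Each strand of the mitochondrial chromosome is read as a long transcript by a dedicated polymerase, POLRMT. The tRNAs lie between most of the larger genes and are cut out of this precursor, which frees the rRNAs and mRNAs. All of the encoded proteins are subunits of respiratory complexes I, III and IV or of the ATP synthase (complex V), whose other subunits come from the nucleus. Because the genes of a strand share a precursor, the steady-state levels of its mRNAs are known to depend on processing and decay as well as on transcription. Below, each of the 13 protein-coding genes is counted as an mRNA. MT-ATP8 overlaps MT-ATP6, and MT-ND4L overlaps MT-ND4, on the same strand, so the genes of each pair are not separate transcripts. Of the 13, 12 come from the heavy-strand transcript, and MT-ND6 alone comes from the light-strand transcript.

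Sequences and positions were taken from GENCODE 29 transcripts on GRCh38. MT-ATP8 and MT-ATP6 are shown because their reading frames share bases and the counts of both fell in P4 treated cells. MT-ATP8 lies at chrM:8366-8572 and the first 120 bases of MT-ATP6 at chrM:8527-8646, both on the plus strand, and capitals mark the 46 bases that both genes hold.
MT-ATP8: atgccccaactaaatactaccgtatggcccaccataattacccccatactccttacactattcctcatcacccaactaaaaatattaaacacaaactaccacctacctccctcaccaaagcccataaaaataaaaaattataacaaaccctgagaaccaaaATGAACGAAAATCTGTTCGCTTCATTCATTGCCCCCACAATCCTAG
MT-ATP6: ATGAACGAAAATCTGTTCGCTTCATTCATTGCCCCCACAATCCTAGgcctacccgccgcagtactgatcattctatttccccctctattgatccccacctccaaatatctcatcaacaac
The remaining sequences are 3 of the tRNAs tested below. MT-TQ (glutamine, chrM:4329-4400, minus strand) overlaps MT-TI on the other strand in the 3 bases in capitals. MT-TT (threonine, chrM:15888-15953, plus strand) starts at the base after the end of MT-CYB, and MT-TP (proline, chrM:15956-16023) lies beside it on the minus strand.
MT-TQ: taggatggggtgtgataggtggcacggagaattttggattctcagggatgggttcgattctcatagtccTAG
MT-TT: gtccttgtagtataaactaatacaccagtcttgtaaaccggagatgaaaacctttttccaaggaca
MT-TP: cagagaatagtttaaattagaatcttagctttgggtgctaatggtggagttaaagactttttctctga

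Total counts per library ranged from 4999521 in vehicle control replicate 1 to 19704493 in control replicate 2. Of the 7 epithelial markers all were detected, with a summed level of 966 to 1455 CPM (counts scaled to library size) in the assigned libraries. The 7 stromal markers summed to 343 to 622 CPM in control, vehicle control and Nap-only libraries and to 127 to 179 CPM in P4 treated libraries, where DCN and PDGFRB had 0 counts. Of these 7, 6 had over 3 counts in some control library. Only 5 did so in vehicle control, in Nap-only and in P4 treated libraries. Endothelial and immune markers summed to at most 1.86 and 1.69 CPM. The part of these markers in the mitochondrial results was not tested. Replicates are described as biological replicates in the labels, with no word on separate passages or days, so p-values measure only the spread between these samples. In bulk RNA, fewer cells of a type and less RNA per cell cannot be told apart.

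The mitochondrial transcripts differed widely in level. On a scale per kilobase of gene length (RPKM), libraries of control cultures held MT-RNR2, the rRNA of the large mitoribosome subunit, at 144381 ± 29780 (SD, n = 3) and MT-RNR1, that of the small subunit, at 7004 ± 1240. The sources used here do not state whether rRNA was removed in library preparation. The rRNA values, and shares of counts that include them, therefore describe the libraries and may not give levels in the cells. Among the mRNAs the highest level per length was that of MT-CO3 at 1738 ± 220 RPKM, followed by MT-CO1 at 1505 ± 174 RPKM, and these neighbours lay within their spread. These values divide uniquely aligned counts by full gene length. Of 75-base stretches, 36.6% in MT-CO1 and 14.6% in MT-CO3 also occur in nuclear transcripts, so the order of genes may differ over unique length, which was not tested. MT-CO2 followed at 637 ± 141 RPKM. These 3 genes encode the catalytic core of complex IV, cytochrome c oxidase. MT-ND1 at 265 ± 29.1, MT-ND4 at 255 ± 31.6 and MT-ATP6 at 219 ± 25.2 RPKM formed a group of similar level, as did MT-ND3 at 183 ± 30.3, MT-ND4L at 156 ± 26.3, MT-CYB at 143 ± 25.3 and MT-ND5 at 132 ± 24.1 RPKM. MT-ND2 at 62.1 ± 13.9 RPKM was lower, MT-ATP8 ranged from 73.3 to 104 RPKM, and the light-strand MT-ND6 was the lowest mRNA at 16.9 ± 2.33 RPKM. In P4 treated cultures this order differed at the top, with MT-CO1 at 2069 ± 86.9 and MT-CO3 at 630 ± 111 RPKM.

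tRNAs were barely represented. Each tRNA gene is 59 to 75 bases long, no longer than the 75-base reads. Reads counted to a tRNA gene may thus stem from uncut precursor, and tRNA counts below may not give the level of the mature tRNA. Of the 22 tRNA genes, 5 (MT-TN, MT-TK, MT-TG, MT-TR and MT-TL2) had 0 counts in every library, which allows up to 3 counts or 0.152 CPM in the deepest library, and 10 had at most 3 counts in any library. The 5 tRNAs that passed the filter on low counts were MT-TI, MT-TQ, MT-TW, MT-TT and MT-TP, and the other 17 never exceeded 16 counts and entered no test. This filter needs enough counts in only as many libraries as the smaller group holds. A tRNA can therefore pass it through the group where it is high.

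**Figure D1:**
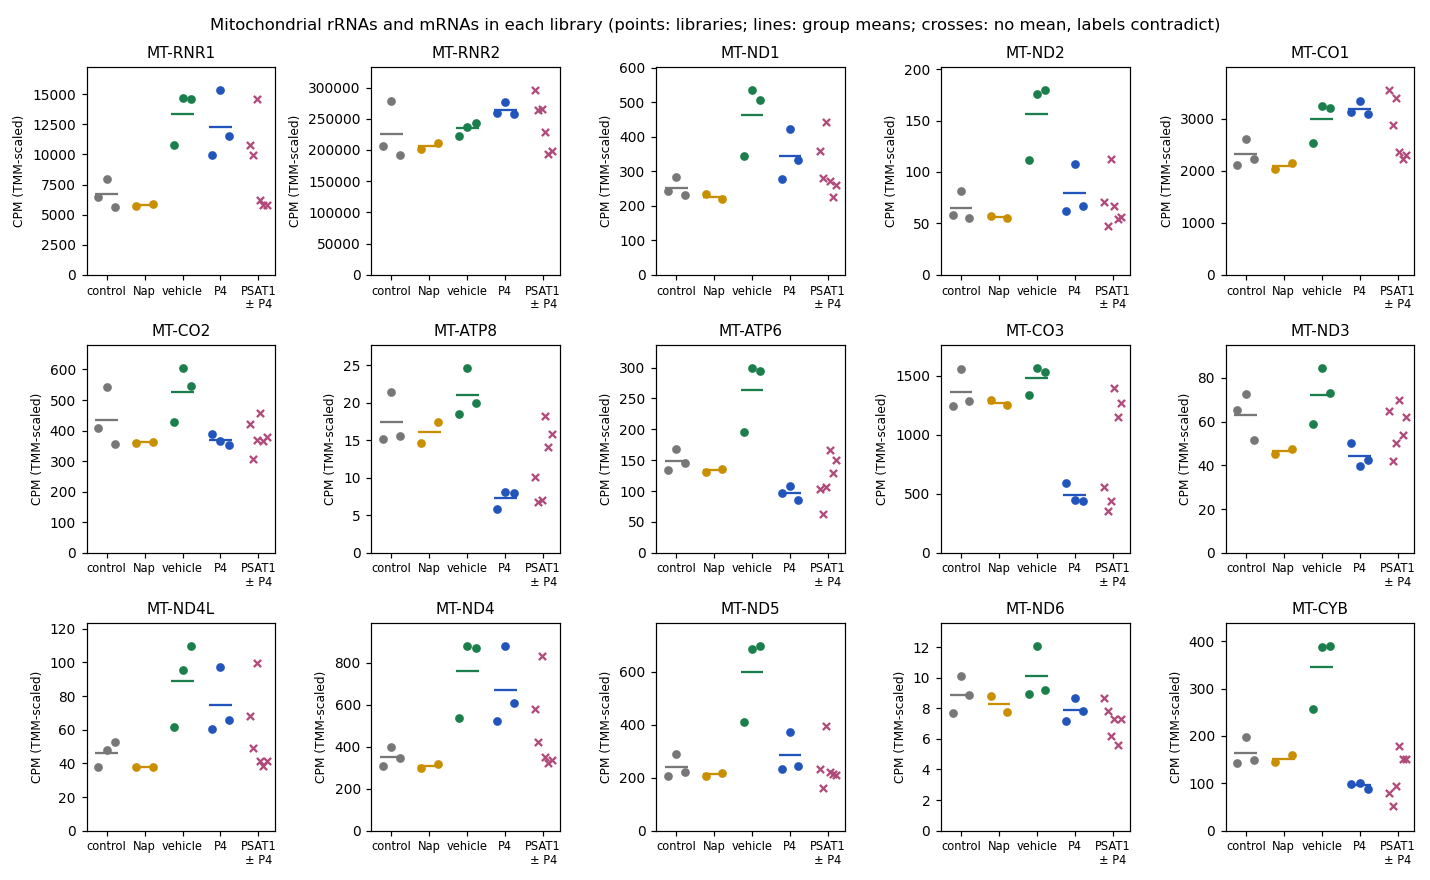
Level of each mitochondrial rRNA and mRNA in every library, in CPM after TMM scaling on a linear axis that starts at 0, with 1 panel per gene. Points are libraries and lines are group means, and crosses are the 6 libraries whose labels contradict each other, which have no mean. MT-CO3 lay at 443 to 595 CPM in the P4 treated libraries and at 1244 to 1570 CPM in the control, Nap-only and vehicle control libraries.

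The effect of P4 was first examined against the vehicle control. Of the 20 members tested, 11 were called at an adjusted p under 0.05 (quasi-likelihood test of edgeR, Benjamini-Hochberg adjusted over all genes), 10 lower and 1 higher. Over all 16540 genes tested, 53.0% were called, 26.6% higher and 26.5% lower. The decrease was mostly in mRNAs: 9 of 13 were lower and 0 higher, with a median log2 fold change of -0.75 against -0.01 over all genes. The other member called lower was the tRNA MT-TT. Neither rRNA was called. The largest decreases were in MT-CYB, MT-CO3, MT-ATP8 and MT-ATP6, which fell 3.67-, 3.03-, 2.93- and 2.77-fold, whereas MT-CO1 did not pass the test. The decreases of MT-ATP8 and MT-ATP6, which overlap, are not separate findings.

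MT-CYB encodes cytochrome b, the only mitochondrially encoded subunit of complex III. It stood at 256, 388 and 391 CPM in the 3 vehicle control libraries and at 98.2, 101 and 87.5 CPM in the 3 P4 treated libraries. All P4 treated libraries lay below all vehicle controls, and also below the controls at 144, 197 and 150 CPM. The log2 fold change was -1.88 (SE 0.15, adjusted p = 5.9e-06, edgeR). No 75-base stretch of MT-CYB was shared with an annotated nuclear transcript.

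MT-CO3, a core subunit of cytochrome c oxidase, stood at 1334, 1570 and 1533 CPM in vehicle controls and at 595, 444 and 443 CPM in P4 treated libraries. The groups did not overlap. It fell by 1.60 on the log2 scale (SE 0.11, adjusted p = 7.7e-07, edgeR). The other core subunits differed from it. MT-CO2 stood at 428, 606 and 547 CPM in vehicle controls and at 389, 367 and 354 CPM after P4, again without overlap, a log2 fold change of -0.53 (SE 0.10, adjusted p = 0.0011, edgeR). MT-CO1, the subunit that holds the oxygen-reducing site, stood at 2532, 3241 and 3214 CPM in vehicle controls and at 3126, 3345 and 3101 CPM after P4. These libraries overlapped, with a log2 fold change of 0.07 (SE 0.09, adjusted p = 0.51, edgeR).

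MT-ATP8 and MT-ATP6 encode the membrane subunits of the ATP synthase that the mitochondrion makes itself, from the overlapping frames shown above. MT-ATP8 stood at 18.5, 24.7 and 20.0 CPM in vehicle controls and at 5.85, 8.17 and 8.01 CPM after P4. MT-ATP6 stood at 195, 300 and 294 CPM in vehicle controls and at 96.5, 108 and 86.2 CPM after P4. For both genes every P4 treated library was below every vehicle control. The log2 fold changes were -1.55 (SE 0.15, adjusted p = 4.9e-06) and -1.47 (SE 0.15, adjusted p = 3.8e-05) with edgeR. Reads inside the 46 shared bases fit both genes, and the setting for such reads in the counting is not given in the sources used here.

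The subunits of complex I, NADH dehydrogenase, did not move alike. MT-ND5 stood at 411, 688 and 700 CPM in vehicle controls and at 234, 373 and 246 CPM after P4, and MT-ND2 at 112, 176 and 180 against 62.3, 108 and 67.3 CPM. Both were lower without overlap, by 1.10 (SE 0.28, adjusted p = 0.02) and 1.02 (SE 0.27, adjusted p = 0.021) on the log2 scale. Vehicle control replicate 1 was the lowest vehicle control and P4 replicate 2 the highest P4 treated library for both. Without P4 replicate 1 neither was called (adjusted p = 0.11 for MT-ND5 and 0.12 for MT-ND2, edgeR). MT-ND3 fell by 0.75 (SE 0.12, adjusted p = 2.9e-04), from 58.9, 84.7 and 73.3 CPM to 50.2, 39.6 and 42.6 CPM. MT-ND6, from the other strand, was at 8.95, 12.1 and 9.22 CPM in vehicle controls and at 7.20, 8.69 and 7.85 CPM after P4. Its call at a log2 fold change of -0.40 (SE 0.16, adjusted p = 0.048) was marginal: it was lost without any single vehicle control library and without P4 replicate 1 or 3, with adjusted p from 0.051 to 0.32. MT-ND1 (-0.45, adjusted p = 0.099), MT-ND4L (-0.30, adjusted p = 0.36) and MT-ND4 (-0.21, adjusted p = 0.56) did not pass the test. Without vehicle control replicate 1, MT-ND1 and MT-ND4L were called lower (adjusted p = 0.0057 and 0.047, edgeR).

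MT-RNR1 stood at 10770, 14726 and 14614 CPM in vehicle controls and at 9970, 15384 and 11535 CPM after P4, overlapping ranges with a log2 fold change of -0.14 (SE 0.17, adjusted p = 0.52, edgeR). MT-RNR2 was at 223175, 237288 and 243800 CPM in vehicle controls and at 259290, 277629 and 257661 CPM after P4. The MT-RNR2 libraries did not overlap, yet its log2 fold change of 0.16 (SE 0.06) missed the threshold at an adjusted p of 0.055 with edgeR. It was called with RLE scaling (adjusted p = 0.045), with scaling from nuclear genes (adjusted p = 0.048), with no filter (adjusted p = 0.025) and without P4 replicate 1 (adjusted p = 0.0082).

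Among the tRNAs, MT-TP was the member that was higher after P4. It had 10, 38 and 27 counts in vehicle controls and 32, 75 and 63 counts after P4, or 1.91, 2.80 and 2.17 CPM against 3.07, 6.45 and 4.80 CPM. The groups did not overlap on the CPM scale, with a log2 fold change of 1.00 (SE 0.28, adjusted p = 0.0093, edgeR). Its neighbour MT-TT, on the opposite strand, moved the other way. It had 7, 55 and 63 counts in vehicle controls and 16, 24 and 32 counts after P4. In CPM, vehicle control replicate 1 lay below all P4 treated libraries and the other vehicle controls lay above them. Its log2 fold change was -0.93 (SE 0.34, adjusted p = 0.033), and the call was lost without vehicle control replicate 2 or 3 or P4 replicate 3 (adjusted p = 0.11, 0.22 and 0.052, edgeR). MT-TI, MT-TQ and MT-TW had log2 fold changes of -0.25, -0.24 and -0.02 and were not called. The strand setting of the counting is not given in the sources used here, so counts of MT-TQ, MT-TP and MT-ND6 may include reads of the opposite strand.

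**Figure D2:**
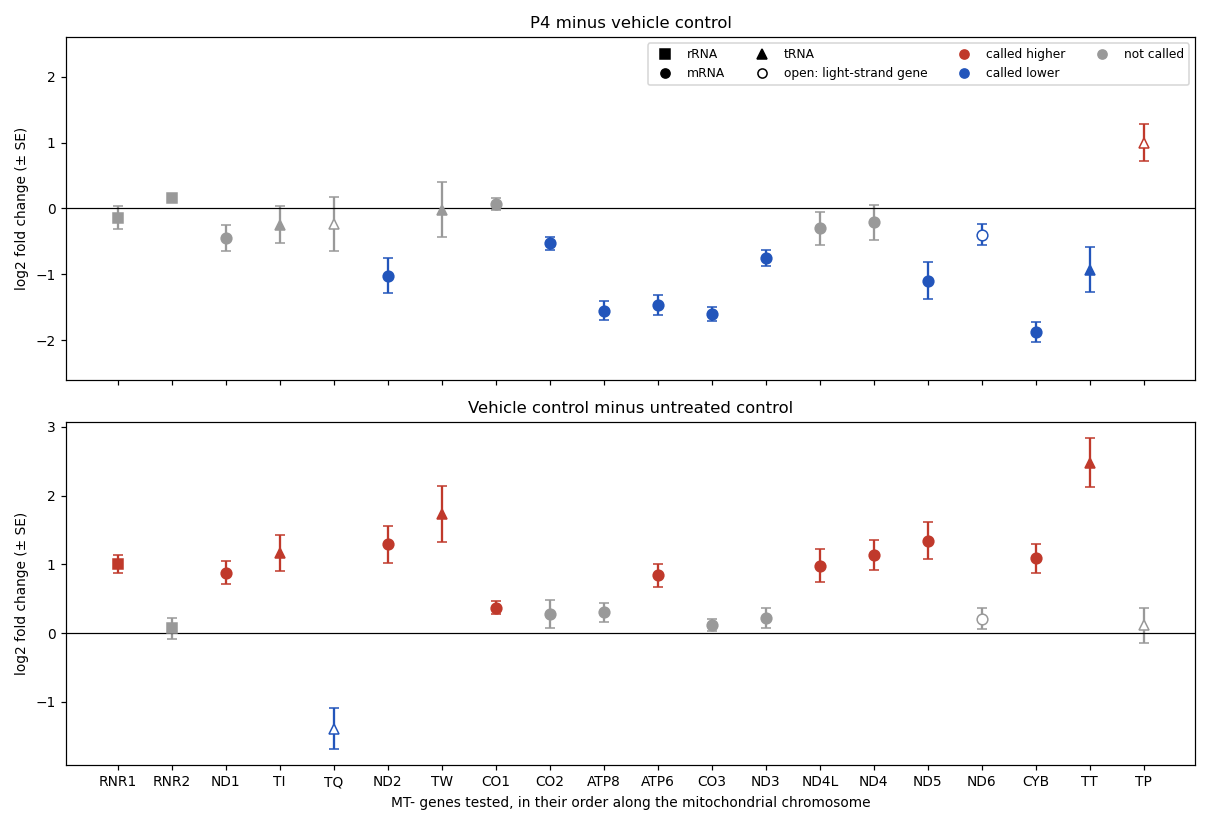
Log2 fold change (± SE) of each mitochondrial gene tested, in the order of the genes along the chromosome, for P4 against the vehicle control (top) and the vehicle control against untreated controls (bottom). Squares are rRNAs, circles mRNAs and triangles tRNAs, open symbols are light-strand genes, and colour gives the call. In the top panel MT-ATP8, MT-ATP6, MT-CO3 and MT-CYB lie between -1.88 and -1.47, while MT-CO1 lies at 0.07.

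The size of the decrease was set against the order of the genes. Across the 12 heavy-strand mRNAs the log2 fold change and the position in the gene order had a Pearson's r of -0.34 and a Spearman's rho of -0.29, as a description across genes that share a precursor and libraries. MT-ATP8, MT-ATP6 and MT-CO3, at -1.55, -1.47 and -1.60, lie in a single stretch (chrM:8366-9990) with no tRNA between them. MT-CYB, with the largest decrease, is separated from MT-CO3 by MT-ND3, MT-ND4L, MT-ND4 and MT-ND5 on the same strand. The 4 heavy-strand mRNAs that were not called were MT-ND1, MT-CO1, MT-ND4L and MT-ND4.

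The vehicle control was then compared with untreated control cultures, to see what the vehicle did by itself. This comparison shares the vehicle control libraries with the one above. Of 20 members tested, 13 were called, 12 higher and 1 lower, while 22.6% of all 16673 genes tested were called, 11.8% higher and 10.7% lower. Of the 13 mRNAs, 8 were higher and 0 lower, with a median log2 fold change of 0.84 against -0.01 over all genes. The mRNAs called higher were those of MT-ND1, MT-ND2, MT-ND4, MT-ND4L, MT-ND5, MT-CYB, MT-ATP6 and MT-CO1. This count moved with single libraries: 5 members were called without control replicate 3, 8 without vehicle control replicate 2 and 7 without vehicle control replicate 3.

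MT-RNR1 was at 6447, 7964 and 5634 CPM in controls, below all vehicle controls. Its log2 fold change was 1.01 (SE 0.13, adjusted p = 1.1e-04, edgeR), and the call held with each library left out in turn. MT-RNR2, at 205947, 278028 and 191296 CPM in controls, overlapped the vehicle controls with a log2 fold change of 0.07 (SE 0.15, adjusted p = 0.78, edgeR). The ratio of MT-RNR2 to MT-RNR1 counts, which does not depend on scaling between libraries, was 31.9, 34.9 and 34.0 in controls, 35.2 and 35.9 in Nap-only cultures, 20.7, 16.1 and 16.7 in vehicle controls and 26.0, 18.0 and 22.3 after P4. All vehicle control and P4 treated libraries lay below all control and Nap-only libraries. Any removal of rRNA in library preparation could also affect this ratio, and its part was not tested.

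The mRNA with the largest rise was MT-ND5, at 207, 289 and 221 CPM in controls, with a log2 fold change of 1.34 (SE 0.27, adjusted p = 0.033, edgeR). MT-ND2, at 57.8, 81.3 and 55.0 CPM in controls, rose by 1.29 (SE 0.27, adjusted p = 0.033). Neither overlapped the vehicle controls. MT-ND4 (1.13, adjusted p = 0.021), MT-CYB (1.09, adjusted p = 0.022), MT-ND4L (0.98, adjusted p = 0.048), MT-ND1 (0.88, adjusted p = 0.01) and MT-ATP6 (0.84, adjusted p = 0.018) rose by similar amounts with edgeR. MT-CO1 rose by 0.37 (adjusted p = 0.011), with overlapping libraries. MT-ATP8 at 0.30, MT-CO2 at 0.28, MT-ND3 at 0.22, MT-ND6 at 0.21 and MT-CO3 at 0.12 were not called (adjusted p from 0.13 to 0.37).

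Each of these 8 mRNA calls was lost when some library was left out, although the log2 fold changes stayed positive. Without control replicate 3 all 8 missed the threshold, with adjusted p from 0.056 for MT-ND1 to 0.091 for MT-ND5. Without control replicate 2 the same was true of MT-ND1, MT-ATP6, MT-ND4L, MT-ND4 and MT-ND5 (0.059 to 0.14), and without control replicate 1 of MT-ND2, MT-CO1, MT-ND4L and MT-ND5 (0.052 to 0.075). Without vehicle control replicate 2 or 3 the calls of MT-ND2, MT-CO1, MT-ND4L, MT-ND5 and MT-CYB were lost (0.054 to 0.18). MT-ATP8 and MT-CO3 were called higher without control replicate 2 (adjusted p = 0.0022 and 0.013, edgeR), as was MT-RNR2 (adjusted p = 0.024).

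Of the tRNAs, MT-TT had the largest difference from controls, where it had 9, 18 and 8 counts, with a log2 fold change of 2.48 (SE 0.36, adjusted p = 1.1e-04, edgeR). MT-TI (1.16, adjusted p = 0.0029, edgeR) rose. MT-TW (1.73, adjusted p = 0.0045, edgeR) had 8, 6 and 3 counts in controls and 5, 14 and 16 counts in vehicle controls. It lost its call without vehicle control replicate 3 (adjusted p = 0.052, edgeR). MT-TT and MT-TW passed the filter on low counts only through the vehicle controls, where they were high. Their calls are therefore not taken as rises. MT-TQ was called lower in the vehicle control. It had 54, 50 and 28 counts in controls and 6, 9 and 15 counts in vehicle controls, a log2 fold change of -1.39 (SE 0.30, adjusted p = 0.0021, edgeR). MT-TQ passed the filter only through the controls, where it was high, so its call is not taken as a fall. MT-TP did not pass the test at 0.11 (adjusted p = 0.79).

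Nap-only cultures allowed Nap without ethanol to be compared with untreated cells and with the vehicle control. Between Nap-only and control cultures 0 of 19 members and 0 of 17166 genes (0%) were called with edgeR. At an unadjusted edgeR p under 0.05 there were 2 members, MT-ND3 with a log2 fold change of -0.44 and MT-ND4L with -0.28, and 217 genes over all. DESeq2 called 1 gene and 0 members. Between vehicle control and Nap-only cultures 10 of 20 members were called, 9 higher and 1 lower, against 23.8% of all genes tested, 12.7% higher and 11.2% lower. MT-RNR1, at 5713 and 5905 CPM in the Nap-only libraries, was higher in the vehicle control by 1.21 (SE 0.14, adjusted p = 8.2e-04). MT-TT (2.35, adjusted p = 4.6e-04) and MT-TI (1.71, adjusted p = 9.9e-04) were called higher and MT-TQ (-1.14, adjusted p = 0.021) lower. MT-TW, also called higher (2.31, adjusted p = 0.0049, edgeR), had 4 and 2 counts in the Nap-only libraries. MT-TT, MT-TI and MT-TW passed the filter here only through the vehicle controls, where they were high. Their calls are therefore not taken as rises. The mRNAs called were MT-ND2 (1.51), MT-ND3 (0.68), MT-CO1 (0.52), MT-ATP8 (0.42) and MT-CO3 (0.22). MT-ND5 (1.51, adjusted p = 0.058), MT-ND4 (1.32, adjusted p = 0.064) and MT-CYB (1.20, adjusted p = 0.052) missed the threshold with edgeR. They were called higher with DESeq2 (adjusted p = 1.6e-05, 6.2e-05 and 3.6e-05). With 2 Nap-only libraries this count was unstable: it was 18 without vehicle control replicate 1, 4 without Nap-only replicate 1 and 5 without Nap-only replicate 2. MT-RNR1 was not called without either Nap-only library (adjusted p = 0.13 in both cases), where the single library left is assumed to vary like the vehicle controls.

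Against untreated controls, the P4 treated cultures differed in both directions. Of 19 members tested 14 were called, 8 higher and 6 lower, against 54.8% of all genes tested, 26.8% higher and 28.0% lower. Lower than in controls were MT-CO3 (-1.48, SE 0.13, adjusted p = 4.3e-08), MT-ATP8 (-1.26, SE 0.17, adjusted p = 5.8e-06), MT-CYB (-0.80), MT-ATP6 (-0.64), MT-ND3 (-0.54) and MT-TQ (-1.64). These 5 mRNAs did not overlap the controls. Higher than in controls were MT-RNR1 (0.86), MT-ND4 (0.92), MT-ND4L (0.67), MT-CO1 (0.44), MT-ND1 (0.42), MT-TT (1.55), MT-TP (1.10) and MT-TI (0.91). MT-TQ passed the filter on low counts only through the controls and MT-TT only through the P4 treated libraries, where each was high. Their calls are therefore not taken as a fall or a rise. MT-ND2 at 0.26, MT-ND5 at 0.23, MT-ND6 at -0.19, MT-CO2 at -0.26 and MT-RNR2 at 0.21 were not called. MT-ND1 lost its call without control replicate 1 or 3 or P4 replicate 2 (adjusted p = 0.05, 0.067 and 0.053), and MT-TI without control replicate 1 or P4 replicate 2 (adjusted p = 0.057 and 0.084). MT-CO2 was called lower without control replicate 3 (adjusted p = 0.022), and MT-RNR2 higher without control replicate 2 (adjusted p = 0.003, edgeR). Set beside each other, MT-ND4 and MT-CO3 were at 0.92 and -1.48 against controls and at -0.21 and -1.60 against vehicle controls.

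The summed share of the 13 mRNAs in all counts was 0.526, 0.615 and 0.545% in controls, 0.519 and 0.528% in Nap-only cultures, 0.662, 0.872 and 0.854% in vehicle controls and 0.534, 0.565 and 0.507% after P4. The vehicle controls lay above all other assigned libraries. Counting error on each of these shares was small, for example 0.655 to 0.669% (exact Clopper-Pearson 95% interval, counting error only) for vehicle control replicate 1, the shallowest library. The P4 mean was 0.673 of the vehicle control mean, and 0.620 without vehicle control replicate 1. The share held by all 37 genes was 24.3 ± 3.76% in controls, 26.2 ± 0.896% in vehicle controls and 26.3 ± 0.671% after P4 (SD, n = 3 each).

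The make-up of the mRNA pool showed how unequal the changes were, since shares within a library do not depend on scaling between libraries. MT-CO1 made up 42.3, 41.7 and 43.3% of the mRNA counts in controls, 40.2, 37.7 and 38.0% in vehicle controls and 56.6, 53.1 and 56.9% after P4. MT-CO3 made up 25.0, 24.8 and 24.9% in controls, 21.2, 18.3 and 18.1% in vehicle controls and 10.8, 7.04 and 8.13% after P4. For both genes the P4 treated libraries lay apart from all others with a condition, on opposite sides. The counts of MT-CO3 were 58.7 ± 1.06% of those of MT-CO1 in controls, 49.6 ± 2.69% in vehicle controls and 15.5 ± 3.07% after P4 (SD, n = 3 each), and 63.3 and 57.9% in the Nap-only libraries.

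MT-CYB made up 4.40 ± 0.292% of the pool in vehicle controls, 2.98 ± 0.130% in controls and 1.66 ± 0.0985% after P4. MT-CYB follows MT-ND5 and MT-ND6 on the chromosome. Its counts were 68.5 ± 0.921% of those of MT-ND5 in controls, 58.2 ± 3.65% in vehicle controls and 34.9 ± 7.40% after P4. MT-ND4 made up 6.42 ± 0.262% of the pool in controls, 9.71 ± 0.994% in vehicle controls and 11.6 ± 2.28% after P4, with overlap between the last groups. Ratios were also taken between genes that overlap each other. The counts of MT-ND4L were 13.2 ± 1.82, 11.6 ± 0.889 and 11.1 ± 0.432% of those of MT-ND4 in control, vehicle control and P4 treated libraries. Those of MT-ATP8 were 11.6 ± 1.05, 8.17 ± 1.35 and 7.64 ± 1.62% of those of MT-ATP6, with overlap between vehicle control and P4 treated libraries.

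**Figure D3:**
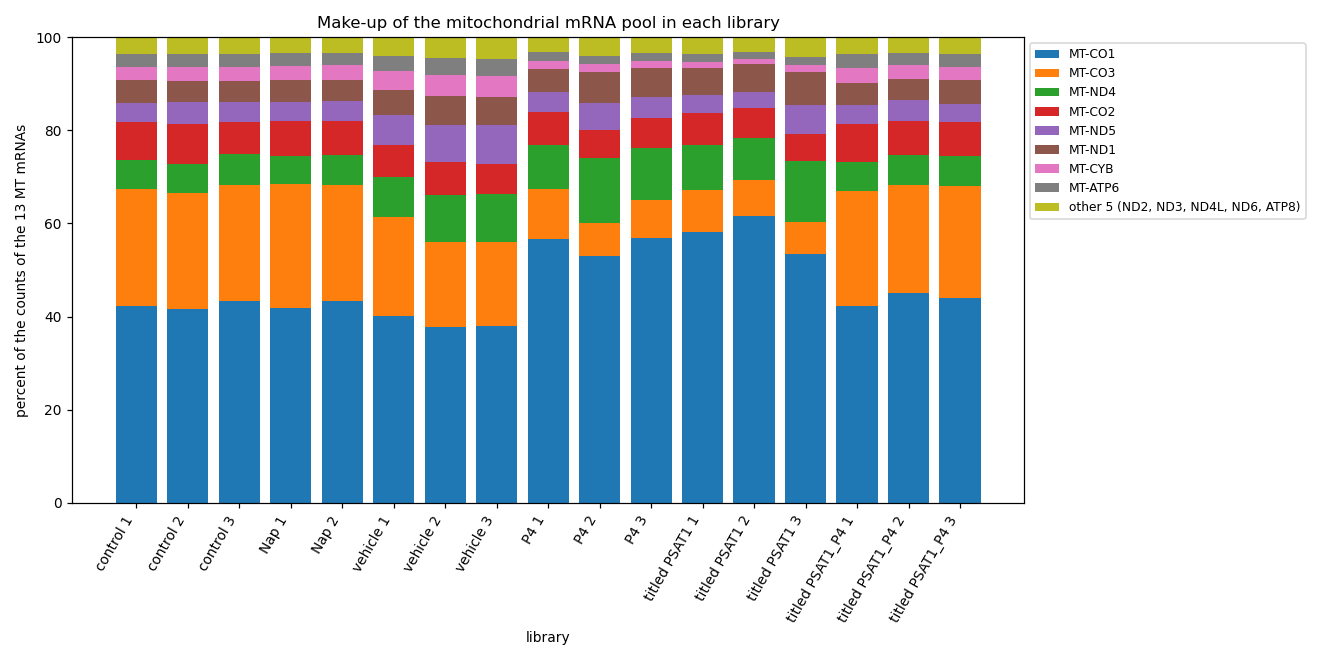
Share of each mRNA in the summed counts of the 13 mitochondrial mRNAs, as stacked bars in percent, with 1 bar per library. MT-CO3 (orange) takes 7.04 to 10.8% in the P4 treated libraries against 18.1 to 26.5% in the control, Nap-only and vehicle control libraries, and MT-CO1 (blue) takes 53.1 to 56.9% against 37.7 to 43.3%.

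Parts of the mitochondrial sequence have copies in the nuclear genome, and reads that match both equally well are absent from uniquely aligned counts. Of the 75-base stretches of each gene, 36.6% in MT-CO1, 34.4% in MT-ND2, 28% in MT-ATP6, 16.3% in MT-ND1, 14.6% in MT-CO3, 10.5% in MT-CO2, 7.1% in MT-ND6, 3.16% in MT-RNR2 and 0.173% in MT-ND5 were also found in an annotated nuclear transcript. None of those in MT-RNR1, MT-ATP8, MT-ND3, MT-ND4L, MT-ND4 or MT-CYB was. The annotated copies themselves had counts. MTATP6P1 was lower after P4 than in the vehicle control by 1.60 (SE 0.23, adjusted p = 2.5e-04), MTCO3P12 by 1.45 (SE 0.30, adjusted p = 0.0014) and MTND2P28 by 0.82 (SE 0.20, adjusted p = 0.0049) on the log2 scale with edgeR. MTCO1P12 was not called (0.32, adjusted p = 0.26). Of the MT-RNR2-like nuclear genes, MTRNR2L1 was higher (0.41, SE 0.10, adjusted p = 0.0033, edgeR), and MTRNR2L8 (-0.02, adjusted p = 0.87) and MTRNR2L12 (0.06, adjusted p = 0.6) were not called. Reads from a copy and from its mitochondrial parent cannot be told apart in these counts where the sequences are alike.

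Nuclear genes for the respiratory complexes were set beside the mitochondrial ones. Of 72 such subunit genes tested between P4 and vehicle control, 4 were higher and 31 lower, with a median log2 fold change of -0.21. Over all genes in this comparison 53.0% were called, 26.6% higher and 26.5% lower, so the 35 called of 72 were no larger a share than among all genes, while most were lower. For complex I the counts were 3 higher and 16 lower of 37, for complex III 1 and 3 of 9, for complex IV 0 and 3 of 11, and for complex V 0 and 9 of 15. The total called fell from 35 to 22 without vehicle control replicate 2 and to 23 without P4 replicate 3. In vehicle control against control, the nuclear subunits and the mitochondrial mRNAs lay on opposite sides. Of the 72 nuclear genes 0 were higher and 48 lower, with a median of -0.32, beside 8 higher and 0 lower among the 13 mitochondrial mRNAs with a median of 0.84 and 22.6% of all genes called, 11.8% higher and 10.7% lower.

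Of 60 genes for the upkeep and expression of mitochondrial DNA, 59 were tested. Between P4 and vehicle control 18 were higher and 13 lower, with a median of 0.05. The 31 called of 59 were about the share called over all genes (53.0%, with 26.6% higher and 26.5% lower), and the genes below are given as single values, not as a result about the list. Of the 9 transcription genes 2 were higher and 2 lower. POLRMT was at 27.1 ± 0.334 CPM after P4 and 22.4 ± 1.76 CPM in the vehicle control (log2 fold change 0.26, adjusted p = 0.035), and lost its call without vehicle control replicate 1 or 3 or P4 replicate 3 (adjusted p = 0.06, 0.18 and 0.099, edgeR). POLRMT was also not called with upper-quartile scaling (adjusted p = 0.15), library totals (0.25), no filter (0.053) or DESeq2 (0.088). TFAM, which packages mitochondrial DNA and opens its promoters, was at -0.13 (adjusted p = 0.1), but was called lower with upper-quartile scaling (-0.22, adjusted p = 0.013) and library totals (-0.25, adjusted p = 0.009). TFB2M, the partner of the polymerase at promoters, was at 0.11 (adjusted p = 0.47). MTERF3 rose by 0.45 (adjusted p = 0.0039), while its relative MTERF2 was at -0.72 (adjusted p = 0.0012) and the rRNA methyltransferase TFB1M at -0.40 (adjusted p = 0.018). TFB1M lost its call without vehicle control replicate 2 or 3 or P4 replicate 2 (adjusted p = 0.088, 0.057 and 0.059, edgeR).

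LRPPRC and SLIRP form a complex that binds and stabilises mitochondrial mRNAs. LRPPRC rose by 0.57 (SE 0.06, adjusted p = 7.3e-06) and SLIRP fell by 0.41 (SE 0.09, adjusted p = 0.0022) on the log2 scale with edgeR. SUPV3L1, the helicase of the mitochondrial RNA degradosome, rose by 0.99 (adjusted p = 3.4e-05). FASTKD5, which acts in maturing mRNA ends that no tRNA flanks, was at -0.94 (adjusted p = 2.6e-05). Among processing genes PRORP, the nuclease subunit of mitochondrial RNase P, was at -1.19 (adjusted p = 3.2e-05), the tRNA thiolase TRMU at -0.82 (adjusted p = 8.8e-05), the tRNA modifier MTO1 at 1.08 (adjusted p = 5.7e-07) and the poly(A) polymerase MTPAP at 0.25 (adjusted p = 0.021). MTPAP lost its call without vehicle control replicate 2 or 3 or P4 replicate 3 (adjusted p = 0.086, 0.11 and 0.066, edgeR).

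Of the genes for DNA upkeep, the matrix protease LONP1 rose by 1.59 (SE 0.10, adjusted p = 1.2e-07) and the topoisomerase TOP1MT by 0.55 (adjusted p = 5.2e-04), and the nucleases MGME1 and DNA2 were at -0.51 (adjusted p = 7.4e-04) and -0.36 (adjusted p = 0.0066). PPARGC1A, a coactivator of genes for mitochondrial biogenesis, stood at 52.5 ± 2.67 CPM after P4 and 15.4 ± 1.35 CPM in the vehicle control, a log2 fold change of 1.77 (SE 0.10, adjusted p = 3.8e-08, edgeR). GABPA, a transcription factor of nuclear genes for respiration, rose by 0.52 (adjusted p = 3.7e-04). In vehicle control against control, 1 of the 59 genes was higher and 14 lower, beside 22.6% of all genes called. This total was 8, 7 and 6 without vehicle control replicates 1, 2 and 3 and 23 without control replicate 2. SLIRP was at -0.53 (adjusted p = 1.1e-04) and TFAM at -0.24 (adjusted p = 0.031) there, while PPARGC1A was at 0.07 (adjusted p = 0.75) and LONP1 at -0.06 (adjusted p = 0.61).

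**Figure D4:**
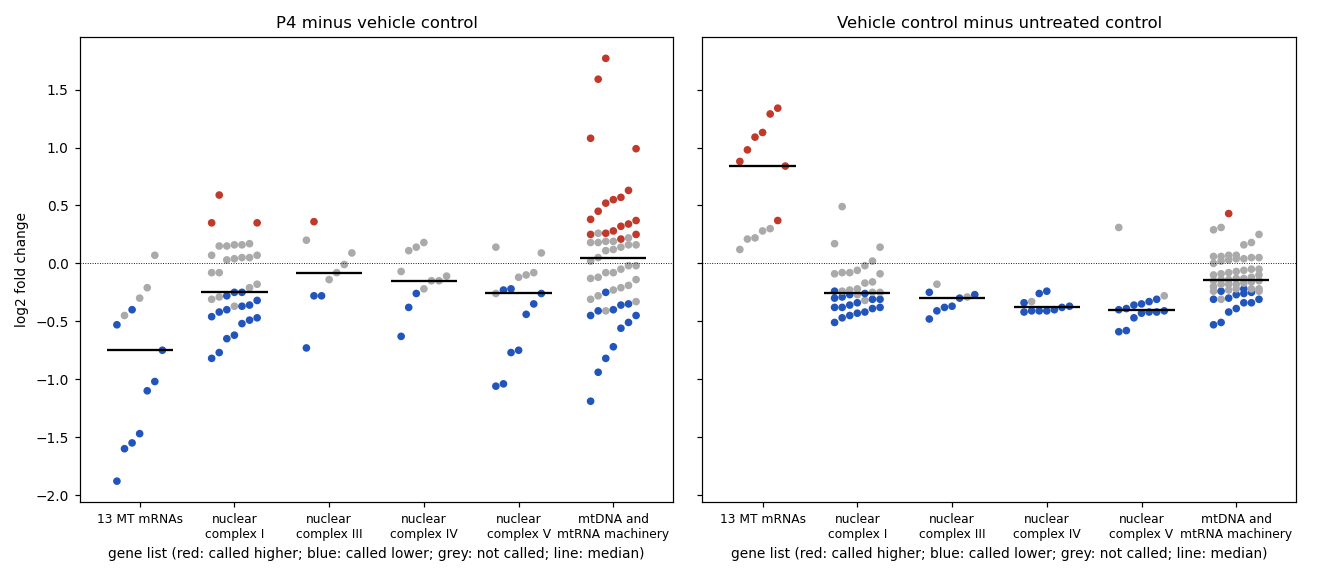
Log2 fold change of the 13 mitochondrial mRNAs, of nuclear subunits of complexes I, III, IV and V, and of genes for the upkeep and expression of mitochondrial DNA, for P4 against the vehicle control (left) and the vehicle control against untreated controls (right). Each point is a gene, red where called higher, blue where called lower and grey where not called, and lines are medians. The mitochondrial mRNAs have a median of -0.75 on the left and 0.84 on the right.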

How the data were processed

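RNA was measured in 17 libraries prepared with a stranded total RNA kit and read from a single end. The authors used Cutadapt for trimming and a quality filter, kept unique Subread alignments, and deposited raw whole-number counts per gene made by featureCounts with GENCODE 31. Tool versions, the genome build of the alignment and the strand setting are not given in the sources used here. Every sample column was used. Gene names, positions and sequences came from GENCODE 29.

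From the deposited counts, edgeR 4.0.16 (R 4.3.3) was run with TMM scaling, filterByExpr (minimum count 10), robust quasi-likelihood fits of the groups compared and Benjamini-Hochberg adjustment over all genes, calling genes at an adjusted p under 0.05. The SE is the absolute log2 fold change divided by the square root of the F statistic. CPM values were TMM-scaled over all 17 libraries, and RPKM values are CPM per kilobase of gene. Replicates differed by more than counting error. Simulated counts for P4 against vehicle control (16410 genes) returned 189 of 200 changed genes, with 7 unchanged genes called. Every simulated gene had the same dispersion (0.00635), and changes as small as many reported here were not simulated. In the data 53.0% of genes were called, so these rates may not carry over. Alternatives were other scalings (RLE, upper quartile, library totals, nuclear genes), DESeq2 1.42.0, other filters, all 4 groups, a replicate block, and each library left out, the last for shares and pool make-up chosen after seeing the data.

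The members and gene lists were chosen with earlier results of these data known. Named were all rRNAs and mRNAs, tRNAs called after P4 or highest in count, POLRMT, TFAM, TFB2M, LRPPRC, SLIRP, and in each machinery list the 2 genes of smallest adjusted p in each direction; other tRNAs, nuclear copies and values beyond this were named after they were seen.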

Additional observations from a re-analysis of the deposited data

Results flagged for a closer look

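Some libraries without a condition held values above the range of the untreated controls. In the library titled PSAT1 replicate 1 all 37 mitochondrial genes took 28.7% of counts, against 21.4 to 28.5% in the controls, whereas the other libraries without a condition lay inside that range, at 25.6 and 26.1% in those titled PSAT1 replicates 2 and 3 and at 24.9, 22.5 and 22.7% in those titled PSAT1_P4. MT-RNR1 took 0.986, 0.912 and 1.33% of counts in the libraries titled PSAT1 replicates 1, 2 and 3, against 0.596 to 0.778% in the controls. It took 0.643, 0.644 and 0.628% in those titled PSAT1_P4 replicates 1, 2 and 3. Titles and column names of these libraries contradict each other, so that no treatment is attached to these values.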

How the results depend on the processing

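No member changed direction with a call under any alternative run. For P4 against vehicle control 11 members were called, 9 to 12 with each library left out and 12 with the replicate number as a block. For vehicle control against control 13 were called, 5 to 13 with each library left out (5, 8 and 7 without control replicate 3, vehicle control replicate 2 and vehicle control replicate 3) and 14 with the block. For P4 against control 14 were called, 12 to 16 with each library left out and 14 with the block. For vehicle control against Nap-only 10 were called, 4 to 18 with each library left out and 17 with the block, and for Nap-only against control 0 were called, 0 with each library left out and 2 with the block, both lower (MT-ND3 at -0.56, adjusted p = 5.0e-09, and MT-CO2 at -0.37, adjusted p = 0.0031, edgeR), among 41 genes of the whole table. Libraries with the same replicate number did not deviate together in every pair (mean correlation from -0.0666 to 0.288 over the 5 comparisons, the highest from the 2 pairs of Nap-only and control at 0.257 and 0.319), so the number was not taken to pair samples. The cause of these moves was not tested. The P4 to vehicle control ratio of the mRNA share was 0.673, and 0.620 to 0.707 with each library left out. The difference of -10.5 percentage points in the MT-CO3 share of the pool ranged from -11.6 to -9.55. MT-ND6 and MT-TT lost their P4 calls with DESeq2 (adjusted p = 0.12 and 0.06), and MT-ND2 and MT-ND5 with no filter (0.13 and 0.11). For vehicle control against Nap-only, DESeq2 called 14 members higher and 0 lower. Scaling by library totals moved the median of all genes to -0.13 for P4 against vehicle control, with 37.6% of calls higher in place of 50.1%, and called 12 members, 1 higher. It gave 37.5% in place of 49.0% for P4 against control and 36.4% in place of 53.2% for vehicle control against Nap-only. Of the 22 tRNAs 17 had too few counts to test; whether depth or their length set this was not tested.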

Other observations

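The 6 libraries whose labels contradict each other fell into separate clusters in several mitochondrial mRNAs. MT-CO3 stood at 556, 353 and 437 CPM in those titled PSAT1 replicates 1, 2 and 3 and at 1393, 1151 and 1274 CPM in those titled PSAT1_P4 replicates 1, 2 and 3. MT-CYB stood at 79.2, 52.2 and 95.3 CPM and at 179, 152 and 151 CPM in the same order. MT-CO3 made up 9.09, 7.53 and 6.87% of the mitochondrial mRNA counts in the former and 24.8, 23.2 and 24.2% in the latter. The ratio of MT-RNR2 to MT-RNR1 was 27.5, 26.5 and 18.2 in the former and 36.9, 33.1 and 34.2 in the latter. MT-TQ had 8, 15 and 13 counts against 48, 36 and 39 counts. No treatment was assigned from these values.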
